A study of Mus musculus with 9 samples.

Results

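The 32 genes described here are interferon-stimulated genes, the antiviral and signalling genes that type I interferon switches on in almost every cell. They were chosen by name, and each gene was represented by its brightest probe set among those annotated with a single symbol. This gave a value for 30 of the 32 genes, of 22180 genes measured in all. Oas1a shared its only probe set with Oas1g, and Ifi44 had no single-symbol probe set here, so neither has a value. Of the 30, 26 were bright enough to be tested.

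The series set out, by its title, to examine how the heavy chain isotype of the B cell receptor sets its dosage and the fate of B cells. Follicular B cells were sorted from the spleens of mice aged 6 to 12 weeks, and total RNA was hybridised to 9 single-colour arrays. The 3 genotypes, with 3 arrays each, were Igh[epsilon]/[epsilon] VJk5 (ε/ε), Igh[gamma]1/[gamma]1 VJk5 (γ1/γ1) and Ighwt VJk5 (wild-type). All 3 carried VJk5, and the series text calls the mice polyclonal. The labels do not say how the ε and γ1 alleles were built, what VJk5 stands for, or whether each array held cells of 1 mouse or of several. Replicates are called independent, but separate animals are not named, and every p-value therefore refers to array-to-array spread that may be partly technical.

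Type I interferons signal through the receptor chains IFNAR1 and IFNAR2 and the kinases JAK1 and TYK2. Downstream, STAT2 and IRF9 act in a complex called ISGF3, which binds a repeated GAAA element in the promoters of its targets. The products sense viral nucleic acid, degrade or retain viral RNA, and feed back on the pathway. In B cells, type I interferon is known to strengthen responses to nucleic acid through Toll-like receptors.

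The element could be read directly in the promoters. A window of 250 bases before to 50 after the gene start was found in the RefSeq table for 23 of the 32 genes (build GRCm38.p6). The letters GAAANNGAAA, or TTTCNNTTTC for the other strand, occurred in the window of 12 of these genes, or 52.2%, against 3.99% of the 27025 genes in the table. A window with 2 or more matches was found for 5 of the 23 genes, against 0.266% of all genes in the table. Overlapping matches were counted separately. Isg15, Ifit3 and Ifit1 are shown because the first 2 had the lowest and the highest log2 difference between ε/ε and wild-type cells and the third is a neighbour of Ifit3 with a difference of -0.053. Capitals mark the matches, and each window is printed 5′ to 3′ along its gene. They lie at chr4:156200769-156201068 on the minus strand for Isg15, chr19:34583279-34583578 on the plus strand for Ifit3 and chr19:34640639-34640938 on the plus strand for Ifit1.
Isg15: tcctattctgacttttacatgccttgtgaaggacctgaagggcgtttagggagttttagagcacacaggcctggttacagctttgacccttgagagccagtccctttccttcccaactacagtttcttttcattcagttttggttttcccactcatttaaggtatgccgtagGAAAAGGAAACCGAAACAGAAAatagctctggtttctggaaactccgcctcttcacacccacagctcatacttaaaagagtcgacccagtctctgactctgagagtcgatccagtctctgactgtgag
Ifit3: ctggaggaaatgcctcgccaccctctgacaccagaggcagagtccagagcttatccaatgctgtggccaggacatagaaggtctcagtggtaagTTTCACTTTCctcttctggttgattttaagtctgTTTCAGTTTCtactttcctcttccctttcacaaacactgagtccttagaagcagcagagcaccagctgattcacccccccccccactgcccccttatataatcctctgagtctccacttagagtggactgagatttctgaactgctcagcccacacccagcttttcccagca
Ifit1: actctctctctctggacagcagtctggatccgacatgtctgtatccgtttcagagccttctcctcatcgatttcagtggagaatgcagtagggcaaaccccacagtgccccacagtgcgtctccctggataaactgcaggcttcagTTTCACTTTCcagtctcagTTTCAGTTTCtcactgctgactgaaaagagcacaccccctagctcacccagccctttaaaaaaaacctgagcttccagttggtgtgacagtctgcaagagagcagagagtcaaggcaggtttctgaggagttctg
The 3 matches of Isg15 overlap and begin at positions -78, -72 and -66 from the gene start. Those of Ifit3 begin at -156 and -122, and those of Ifit1 at -104 and -85. The 9 tested genes with a match had a median log2 difference between ε/ε and wild-type cells of -0.053, and the 9 tested genes with a window and no match had a median of 0.065. A match is a description of the letters and says nothing about binding.

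None of the 26 genes passed the test in any comparison. The test was limma's moderated linear model adjusted by Benjamini-Hochberg over the 12170 genes that were bright enough, with 0.05 as the threshold. Between ε/ε and wild-type cells, 0 of the 26 passed, where 6.34% of all genes tested did. Between γ1/γ1 and wild-type cells, 0 of the 26 passed, against 0.0411% of all genes. Between ε/ε and γ1/γ1 cells, 0 of the 26 passed, against 2.66%. Limma's F test for any difference among the genotypes also called 0 of the 26, against 4.11%, and 2 of the 26 (7.69%) had an unadjusted F test p under 0.05, against 21.6%. At an unadjusted p under 0.05 from limma, 4 of the 26 (15.4%) reached the mark between ε/ε and wild-type cells, where 24.8% of all genes did. The same mark was reached by 1 of the 26 (3.85%) between γ1/γ1 and wild-type cells, against 6.82% of all genes, and by 2 of the 26 (7.69%) between ε/ε and γ1/γ1 cells, against 19.9%. The comparisons of ε/ε and of γ1/γ1 with wild-type use the same wild-type arrays. In sorted cells measured in bulk, fewer cells of a type and less RNA per cell cannot be told apart.

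The median absolute log2 difference of the 26 genes was 0.21 between ε/ε and wild-type cells (0.24 for all genes), 0.14 between γ1/γ1 and wild-type cells (0.15 for all genes) and 0.22 between ε/ε and γ1/γ1 cells (0.22 for all genes). The differences ran from -0.62 to 0.80 between ε/ε and wild-type cells, from -0.77 to 0.37 between γ1/γ1 and wild-type cells and from -0.40 to 0.60 between ε/ε and γ1/γ1 cells. No gene of the 26 differed by 1, a change of 2-fold, in any of them. The widest 95% intervals, taken gene by gene, of the ε/ε comparison with wild-type reached 2.49-fold higher and 2.21-fold lower. Those of the γ1/γ1 comparison reached 1.85-fold higher and 2.79-fold lower. With 3 arrays a genotype, the intervals of single genes left room for changes of up to those sizes. The median log2 difference of the 26 genes between ε/ε and wild-type cells was 0.087, beside -0.013 for all genes, and it was -0.024 without ε/ε replicate 2 and also without ε/ε replicate 3. Between γ1/γ1 and wild-type cells it was -0.033, beside -0.018 for all genes, and 0.069 without γ1/γ1 replicate 1. The median between ε/ε and γ1/γ1 cells was 0.12, beside practically none for all genes, and 0.031 without γ1/γ1 replicate 1. The median SD within a genotype was 0.30 log2 units for the 26 genes and 0.24 for all genes tested, so these genes varied somewhat more from array to array.

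**Figure D1:**
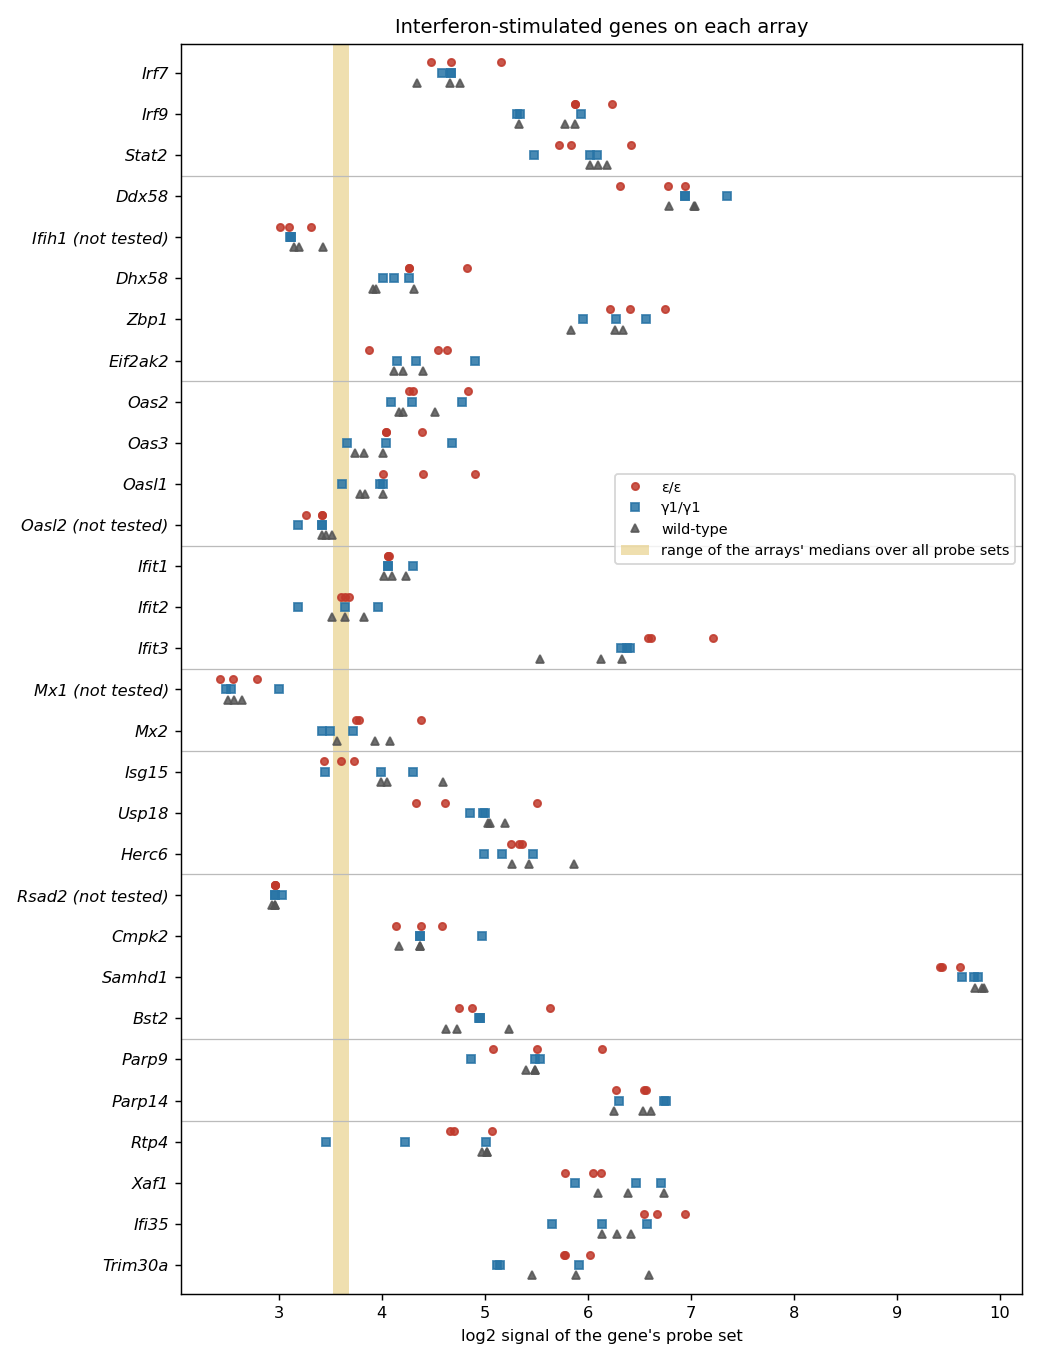
Log2 signal of the 30 measured interferon-stimulated genes on each array, by role from top to bottom (points: ε/ε circles, γ1/γ1 squares, wild-type triangles; band: range of the arrays' medians over all probe sets). Within most genes the 3 genotypes overlap, and Ifih1, Oasl2, Mx1 and Rsad2 lie left of the band on every array. Positions of different genes are not comparable as amounts.

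**Figure D2:**
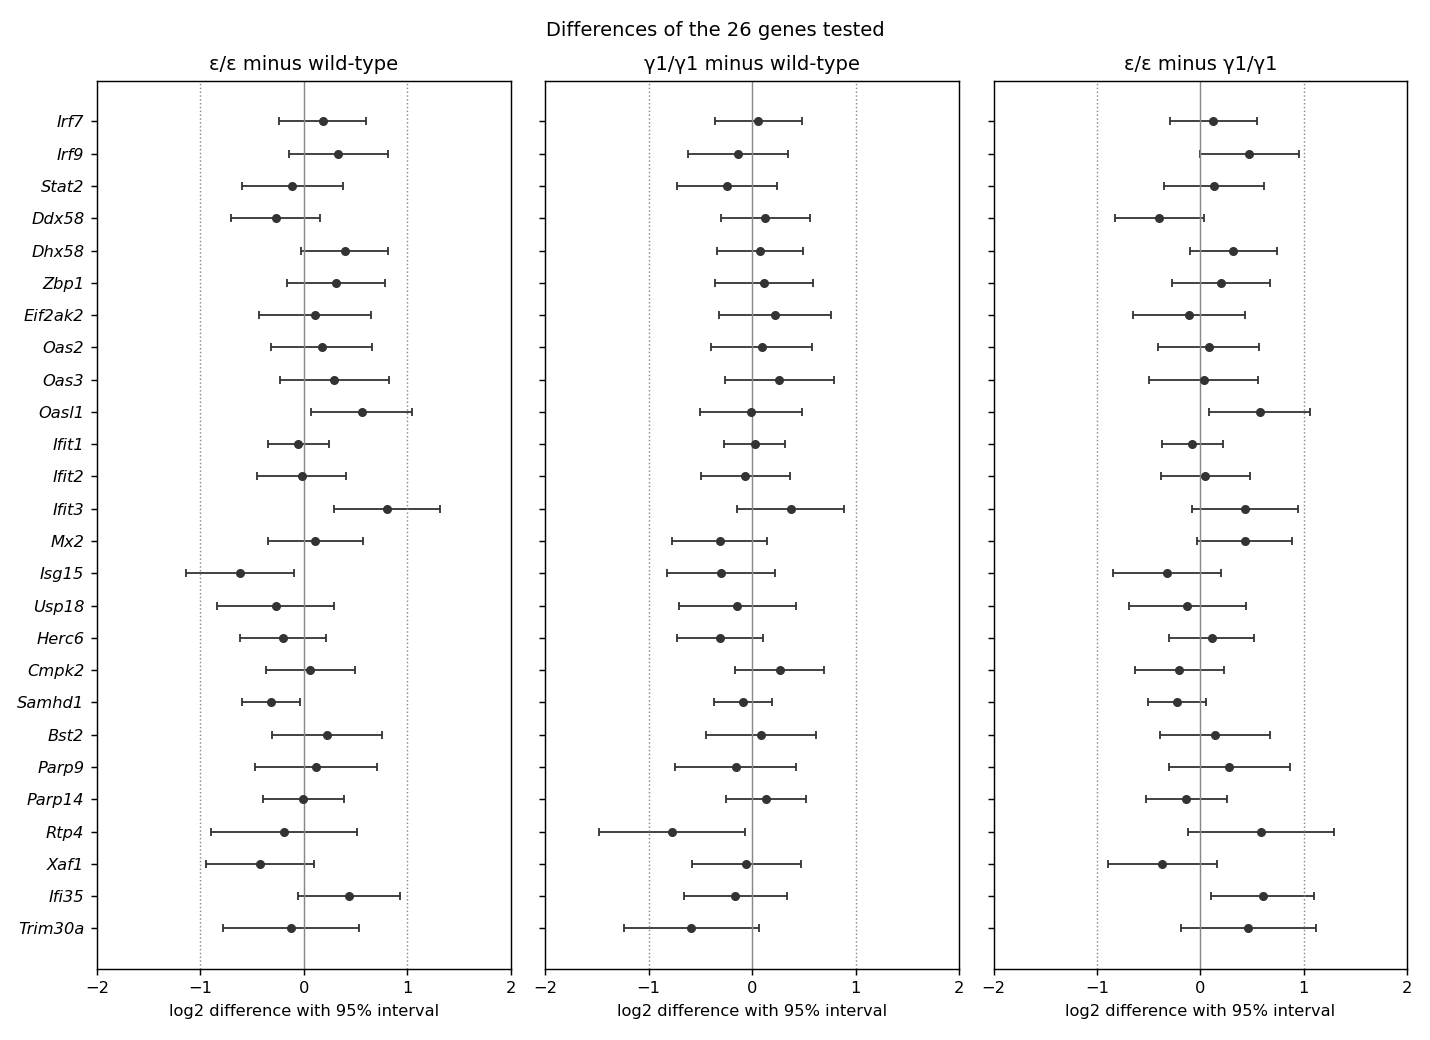
Log2 differences of the 26 tested genes in the 3 comparisons (points) with 95% confidence intervals from limma (bars), dotted lines marking a 2-fold change. No point reaches a dotted line, and the intervals of Ifit3, Oasl1, Isg15 and Samhd1 leave out 0 between ε/ε and wild-type before adjustment over genes.

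Among the signalling factors that interferon itself induces, Irf7, which amplifies interferon transcription, Irf9, the DNA-binding partner of STAT2, and Stat2 were all measured. Irf9 had log2 signals of 5.88, 5.88 and 6.24 on the ε/ε arrays, 5.31, 5.93 and 5.34 on the γ1/γ1 arrays and 5.78, 5.33 and 5.88 on the wild-type arrays. One ε/ε array was highest and the other values overlapped. The difference between ε/ε and γ1/γ1 cells was 0.47 ± 0.22 (SE, limma adjusted p = 0.259), and that between ε/ε and wild-type cells was 0.34 (limma adjusted p = 0.369). Irf7 lay between 4.34 and 5.16 and Stat2 between 5.47 and 6.42 on the 9 arrays, both highest on ε/ε replicate 3, and ε/ε cells differed from wild-type by 0.19 and -0.11.

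The cytosolic sensors comprised the RNA helicases Ddx58 (RIG-I), Ifih1 (MDA5) and Dhx58 (LGP2), the nucleic acid sensor Zbp1 and the double-stranded RNA kinase Eif2ak2 (PKR). Ddx58 read 6.32, 6.78 and 6.94 on the ε/ε arrays, 6.94, 7.35 and 6.94 on the γ1/γ1 arrays and 6.78, 7.04 and 7.03 on the wild-type arrays. Its 3 ε/ε arrays included the lowest value, and the difference between ε/ε and γ1/γ1 cells was -0.40 ± 0.19 (SE, limma adjusted p = 0.285). For Dhx58 the ε/ε arrays read 4.82, 4.27 and 4.27, the γ1/γ1 arrays 4.12, 4.27 and 4.01 and the wild-type arrays 3.94, 3.92 and 4.31. Only the first ε/ε array stood above all others, and the difference from wild-type of 0.40 ± 0.19 (SE, limma adjusted p = 0.226) was 0.21 without it. Zbp1 lay between 5.84 and 6.75 and Eif2ak2 between 3.88 and 4.91, and their groups overlapped in every comparison. Ifih1 was set aside as too dim, with signals of 3.01 to 3.43 below the median probe set of every array.

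The OAS enzymes make 2-5A, the second messenger that activates RNase L, whereas Oasl1 has no such activity in the mouse and acts as a regulator of Irf7 translation. Oasl1 read 4.91, 4.40 and 4.01 on the ε/ε arrays, 3.98, 3.62 and 4.01 on the γ1/γ1 arrays and 3.84, 4.02 and 3.79 on the wild-type arrays. The first 2 ε/ε arrays were the highest, and the third lay within the range of the other genotypes. Its differences were 0.57 ± 0.22 between ε/ε and γ1/γ1 cells (SE, limma adjusted p = 0.187) and 0.56 ± 0.22 between ε/ε and wild-type cells (SE, limma adjusted p = 0.151). Without ε/ε replicate 1 the difference from γ1/γ1 was 0.34. Oas2 lay between 4.09 and 4.84 with overlapping groups. Oas3 read 4.39, 4.04 and 4.04 in ε/ε cells, against 4.01, 3.83 and 3.74 in wild-type cells, without overlap but by only 0.30 on average (limma adjusted p = 0.481). Oasl2 was set aside, at 3.19 to 3.52.

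Of the IFIT proteins, IFIT1 binds viral RNA that lacks the host's cap methylation. Ifit3 came closest of the 26 genes to the threshold. Its log2 signal was 6.61, 6.58 and 7.22 on the ε/ε arrays, 6.38, 6.32 and 6.41 on the γ1/γ1 arrays and 6.13, 5.53 and 6.33 on the wild-type arrays. All 3 ε/ε arrays lay above every other array. The ε/ε mean exceeded the wild-type mean by 0.80 ± 0.23 (SE, 95% interval 0.29 to 1.32, limma adjusted p = 0.0655). Leaving out 1 array at a time gave differences from 0.57, without wild-type replicate 2, to 0.97. After quantile normalization the gene passed, with a difference of 0.93 and a limma adjusted p of 0.0365, and it also passed, at 0.0457, when only genes above the 75th percentile of an array on at least 3 arrays were tested. The γ1/γ1 mean exceeded the wild-type mean by 0.37 (limma adjusted p = 0.791). Ifit1, with the promoter printed above, lay between 4.02 and 4.31, with 6 distinct values among the 9 arrays, and differed from wild-type by -0.053 (ε/ε) and 0.025 (γ1/γ1). Ifit2 lay between 3.18 and 3.97, near the arrays' medians. Ifit1 and Ifit2, tandem neighbours of Ifit3 in the Ifit cluster, had 95% intervals of -0.35 to 0.24 and -0.45 to 0.41 between ε/ε and wild-type cells. Whether Ifit3 differed from them in its response was not tested.

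The MX proteins are dynamin-like GTPases that trap viral nucleocapsids. Mx2 read 3.78, 4.38 and 3.76 on the ε/ε arrays, 3.49, 3.42 and 3.72 on the γ1/γ1 arrays and 3.56, 3.93 and 4.08 on the wild-type arrays. All 3 ε/ε values lay above the γ1/γ1 values and overlapped those of wild-type, with a difference from γ1/γ1 of 0.43 ± 0.21 (SE, limma adjusted p = 0.282). Mx1 was set aside at 2.43 to 3.01 on the 9 arrays.

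In the ISG15 system, the ubiquitin-like Isg15, its main mouse ligase Herc6 and its protease Usp18, which also blocks the receptor, each had a negative difference from wild-type in both mutant genotypes. None of these differences passed. Isg15 read 3.61, 3.44 and 3.73 on the ε/ε arrays, 3.99, 4.30 and 3.45 on the γ1/γ1 arrays and 4.05, 3.99 and 4.59 on the wild-type arrays. Every ε/ε value lay below every wild-type value, by 0.62 on average (difference -0.62 ± 0.24, SE, limma adjusted p = 0.139), in the opposite direction to Ifit3. The ε/ε values lay about at the median probe set of the arrays, which ran from 3.53 to 3.69. Usp18 averaged 4.95 ± 0.077 on the γ1/γ1 arrays and 5.09 ± 0.089 on the wild-type arrays (SD, n = 3 each), and all 3 γ1/γ1 values lay below all 3 wild-type values. In ε/ε cells it spread from 4.34 to 5.51, the extremes of all 9 arrays. Herc6 lay between 4.99 and 5.87, and its groups overlapped.

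Of the effectors on nucleotides and membranes, Samhd1, which hydrolyses the nucleotides that viruses need, was read at 9.42, 9.62 and 9.44 on the ε/ε arrays, 9.63, 9.79 and 9.75 on the γ1/γ1 arrays and 9.85, 9.82 and 9.76 on the wild-type arrays. The ε/ε arrays lay below all 6 others. The difference from wild-type was -0.32 ± 0.13 (SE, limma adjusted p = 0.153), and from γ1/γ1 it was -0.23 (limma adjusted p = 0.342). Cmpk2, a mitochondrial nucleotide kinase, lay between 4.14 and 4.97, and Bst2 (tetherin), which holds budding virus at the membrane, between 4.62 and 5.64, both with overlapping groups. Rsad2 (viperin) was set aside, with signals of 2.94 to 3.04, lower than the median probe set on all arrays. Parp14, a mono-ADP-ribosyltransferase, and Parp9, which works in a complex with a ubiquitin ligase, had differences from wild-type of -0.0040 and 0.12 for ε/ε and of 0.13 and -0.16 for γ1/γ1.

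Of the remaining genes, Rtp4, a chaperone of receptors that also restrains interferon responses, gave the most negative difference of the 26 genes in the 3 comparisons. Its signals were 4.70, 5.07 and 4.67 on the ε/ε arrays, 3.46, 4.22 and 5.01 on the γ1/γ1 arrays and 5.02, 5.02 and 4.97 on the wild-type arrays. The γ1/γ1 arrays were spread over more than the range of all the others. The difference between γ1/γ1 and wild-type cells was -0.77 ± 0.32 (SE, limma adjusted p = 0.709), and it was -0.39 without γ1/γ1 replicate 1 and -1.17 without γ1/γ1 replicate 3. Ifi35 read 6.54, 6.67 and 6.94 on the ε/ε arrays, 5.65, 6.57 and 6.13 on the γ1/γ1 arrays and 6.42, 6.14 and 6.29 on the wild-type arrays. The ε/ε values lay above the wild-type values and overlapped those of γ1/γ1, and the difference from γ1/γ1 was 0.60 ± 0.22 (SE, limma adjusted p = 0.173). It alone of the 30 genes had a second probe set, whose means were 5.59 for ε/ε, 5.15 for γ1/γ1 and 4.79 for wild-type. Both probe sets had the highest mean in ε/ε cells, but they placed γ1/γ1 and wild-type in opposite order. In the second, ε/ε replicate 1 (5.19) lay below wild-type replicate 1 (5.22), so the ε/ε and wild-type groups overlapped.

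Trim30a, a TRIM family member that dampens NF-κB signalling, read 6.02, 5.77 and 5.78 on the ε/ε arrays, 5.15, 5.91 and 5.12 on the γ1/γ1 arrays and 5.46, 6.60 and 5.88 on the wild-type arrays. Its wild-type arrays spread over more than 1 log2 unit, and the difference between γ1/γ1 and wild-type was -0.59 ± 0.29 (SE, limma adjusted p = 0.735). The pro-apoptotic Xaf1 had 5.78, 6.05 and 6.12 on the ε/ε arrays, 5.88, 6.47 and 6.71 on the γ1/γ1 arrays and 6.74, 6.09 and 6.39 on the wild-type arrays. The ε/ε arrays were on the low side of an overlapping range, with a difference from wild-type of -0.42 ± 0.24 (SE, limma adjusted p = 0.301).

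Counted over the 26 genes, the 3 ε/ε values lay wholly above the 3 wild-type values for Oas3, Ifit3 and Ifi35 (brighter probe set) and wholly below them for Isg15 and Samhd1. These 5 genes make 19.2%, where 28.4% of all genes had groups that did not overlap (11.8% with ε/ε higher and 16.6% with ε/ε lower). Between γ1/γ1 and wild-type cells only Usp18 of the 26 did so (3.85%), with γ1/γ1 lower, against 12.4% of all genes (4.68% higher and 7.71% lower). Between ε/ε and γ1/γ1 cells Ifit3 and Mx2 lay wholly higher and Samhd1 wholly lower in ε/ε (11.5%), against 21.1% (9.86% higher and 11.3% lower).

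Array by array, the median of the 26 genes' log2 distances from their wild-type mean was -0.018, 0.071 and 0.0041 on ε/ε replicates 1 to 3, -0.19, 0.043 and 0.0023 on the γ1/γ1 replicates and -0.050, -0.034 and 0.11 on the wild-type replicates. The median was highest on wild-type replicate 3, where 18 of the 26 genes lay above the wild-type mean and 0 had their lowest value. Each wild-type array is part of the mean it is measured from, so its distances are not on a par with those of the mutant arrays. The array lowest in this median, γ1/γ1 replicate 1, held the lowest value of 8 of the 26 genes, including Rtp4, Irf9, Stat2 and Ifi35. The highest value of a gene fell on an ε/ε array for 14 genes, on a γ1/γ1 array for 7 and on a wild-type array for 5, and the lowest on an ε/ε array for 7, a γ1/γ1 array for 12 and a wild-type array for 7. Above the wild-type mean lay 13, 15 and 13 of the 26 genes on the ε/ε arrays, 9, 14 and 13 on the γ1/γ1 arrays and 10, 10 and 18 on the wild-type arrays. None of these counts was made over all genes, so how they compare with genes in general is not known.

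**Figure D3:**
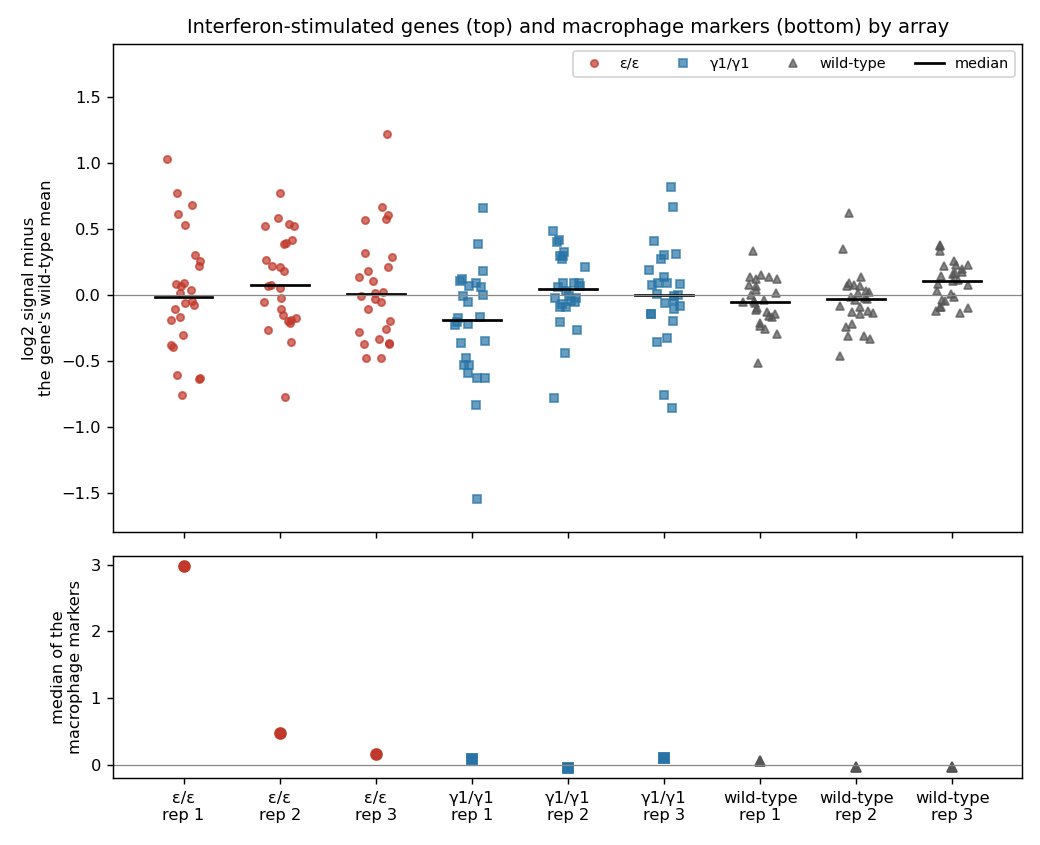
Top: log2 signal of each of the 26 tested genes minus its wild-type mean, on each array, with the median as a bar. Bottom: the median of the same quantity over 19 macrophage markers. The genes' medians stay between -0.19 and 0.11, while the macrophage markers stand 2.97 above their wild-type mean on ε/ε replicate 1.

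Several arrays differed in ways the genotype labels do not give. The 11 follicular B cell markers measured had a median log2 signal of 8.60 to 9.46 on the 9 arrays, where the median probe set lay at 3.53 to 3.69. Macrophage markers, all 19 of which had a probe set, stood 2.97, 0.48 and 0.16 log2 units (median) above their wild-type means on ε/ε replicates 1, 2 and 3. Their summed linear signal was between 321 and 2556 on ε/ε arrays, 251 and 278 on γ1/γ1 arrays, and 239 and 256 on wild-type arrays. On the ε/ε array richest in these markers, 3 of the 26 genes (Oasl1, Dhx58 and Parp9) had their highest value. On the same array 5 of them (Ddx58, Usp18, Cmpk2, Samhd1 and Xaf1) had their lowest value. Such counts were not made over all genes. The part of the macrophage markers in these values was not tested. The log2 signal of Xist was 5.25 on ε/ε replicate 1 and 4.53 on γ1/γ1 replicate 1, and 10.4 to 10.8 on the other 7 arrays. These 2 arrays held the lowest value of 13 of the 26 genes and the highest value of 4. The same was not counted over all genes. In the fit of the other 7 arrays 0 of the 26 genes passed in any comparison by limma. Exactly repeated values were common, since 15 of the 30 genes (50%) and 45.9% of all probe sets had the same value on at least 2 arrays.

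Around these genes, the pathway was followed in lists of its own. The background was 2.33% of all genes higher and 4.02% lower in ε/ε cells relative to wild-type. Of 9 tested genes for interferon receptors and their kinases, 0 rose and 1 fell in ε/ε relative to wild-type cells, with a list median of 0.021 beside -0.013 for all genes. That 1 gene was Jak2, a kinase of the interferon-γ receptor, with means of 6.28 ± 0.22 for ε/ε, 7.06 ± 0.23 for γ1/γ1 and 7.02 ± 0.24 for wild-type (SD, n = 3 each). Its difference from wild-type of -0.74 (limma adjusted p = 0.0438) missed the threshold under 14 of 20 alternatives, among them without any 1 array other than ε/ε replicate 2 and γ1/γ1 replicate 1, with adjusted p up to 0.157. The kinases and chains of the type I receptor did not pass. The differences from wild-type in ε/ε cells were -0.052 for Ifnar1, 0.021 for Ifnar2, -0.32 for Jak1 (limma adjusted p = 0.163) and 0.15 for Tyk2. Of 7 transcription factors of the response, 0 rose and 1 fell, with a list median of 0.24. The 1 was Irf2, a repressor of interferon targets that also stands on the list of negative regulators, with a difference of -0.51 (limma adjusted p = 0.0454), which missed the threshold under 14 of 20 alternatives, among them without any 1 array other than ε/ε replicate 2, with adjusted p up to 0.180. Irf1 differed by 0.71 (limma adjusted p = 0.0630) and Irf3 by -0.18. Among the 16 negative regulators tested, Irf2 alone passed, the list median was 0.084, and Socs1, a feedback inhibitor of the JAKs, differed by 0.10.

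In 3 other lists the calls between ε/ε and wild-type cells ran upward, though each covered few genes. Of 9 tested interferon genes 2 rose and 0 fell, with a list median of 0.55, and 11 more were too dim to test. Of the 9, 6 had a positive difference and 3 a negative one. The 3 were Ifna1, Ifna4 and Ifna15, with means of 6.03, 6.67 and 5.33 in ε/ε cells and 6.06, 6.78 and 5.41 in wild-type cells. Ifna14 read 6.24, 6.13 and 6.02 on the ε/ε arrays, 4.68, 5.16 and 4.79 on the γ1/γ1 arrays and 4.95, 5.06 and 4.42 on the wild-type arrays. It was higher in ε/ε than in wild-type cells by 1.32 ± 0.20 (SE, limma adjusted p = 0.00633) and higher than in γ1/γ1 cells by 1.26. Gm13271, annotated under the older symbol Ifnz, read 6.86, 5.92 and 7.08 on the ε/ε arrays, 4.03, 4.52 and 4.01 on the γ1/γ1 arrays and 4.98, 4.27 and 4.73 on the wild-type arrays. It was higher in ε/ε than in wild-type cells by 1.96 (limma adjusted p = 0.00745) and higher than in γ1/γ1 cells by 2.43. Both differences from wild-type passed under all 20 alternatives. The difference from γ1/γ1 missed the threshold in the 7 arrays of high Xist for both genes, and for Ifna14 without γ1/γ1 replicate 3 (limma adjusted p = 0.0509). Interferon α and ζ genes form clusters of near-identical copies, so which copy the probes read is uncertain. Markers of plasmacytoid dendritic cells, the professional interferon producers, had summed signals of between 1329 and 1870 on ε/ε arrays, 1128 and 1438 on γ1/γ1 arrays, and 696 and 1159 on wild-type arrays. Their list of 9 measured genes includes Bst2, a gene described above, and Ly6d and Tcf4, which B cells express. The defining marker Siglech read only 3.77 to 4.27 on the 9 arrays. Ly6d, at 9.05 to 10.71, made up most of every sum, and the next brightest, Tcf4, read 5.31 to 6.09. The sums therefore mainly followed Ly6d. Between ε/ε and wild-type cells, 5 of the 7 tested markers had a positive difference and 2 a negative one. Only Ly6d passed, by 1.11 (limma adjusted p = 0.0289). The part of these markers in the interferon genes' values was not tested.

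Among 16 tested genes of nucleic acid sensing upstream of interferon, 2 rose and 0 fell in ε/ε relative to wild-type cells, with a list median of 0.23. They were Tlr9, the endosomal DNA receptor, by 1.24 (limma adjusted p = 0.0303), and Unc93b1, the chaperone that carries it to endosomes, by 1.15 (limma adjusted p = 0.0207). Tlr9 missed the threshold under 6 of 20 alternatives (adjusted p up to 0.127) and Unc93b1 under 5 of 20 (up to 0.0674), both among them without ε/ε replicate 2 or 3 or wild-type replicate 2 or 3. Of 11 tested GTPases and targets of interferon γ, 2 rose and 0 fell, with a list median of 0.17. These were the guanylate-binding proteins Gbp4, by 1.24 (limma adjusted p = 0.0310), and Gbp7, by 0.98 (limma adjusted p = 0.0147). Gbp4 missed the threshold under 7 of 20 alternatives (adjusted p up to 0.129), among them without any 1 of ε/ε replicates 2 and 3 and the wild-type replicates, and Gbp7 under 1 of 19, without wild-type replicate 3. Marginal zone B cell markers belong to a B cell subset with strong TLR responses. Their summed signals were between 823 and 1133 on ε/ε arrays, 694 and 854 on γ1/γ1 arrays, and 282 and 413 on wild-type arrays. Against wild-type, 5 of the 7 tested markers rose and 0 fell in ε/ε cells, with a list median of 1.11. For γ1/γ1 cells 1 rose and 0 fell, with a list median of 0.25 and a largest difference of 2.98. Il9r, the brightest of them on the γ1/γ1 arrays, averaged 8.81 there and 5.84 on the wild-type arrays. The sums are therefore no measure of the whole list. The part of these markers in the values of the sensing genes and GTPases was not tested.

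In a list of 52 further tested interferon-induced genes, 3 passed higher and 3 lower in ε/ε cells against wild-type. The list median was 0.16, against 0.087 for the 26 genes above and -0.013 for all genes. Its median absolute difference was 0.49, against 0.24 for all genes. At an unadjusted limma p under 0.05 were 21 of the 52 (40.4%), against 24.8% of all genes. Groups did not overlap for 16 (30.8%), 11 higher and 5 lower in ε/ε, against 28.4% of all genes. Higher were Lgals3bp, a secreted galectin-binding glycoprotein, by 1.85 (limma adjusted p = 0.0127), Phf11a by 0.98 (0.0181) and the helicase Helz2 by 0.88 (0.0451). Lgals3bp had 2 probe sets, of which the brighter was used, and its difference was as small as 1.34 over the alternatives. Lgals3bp missed the threshold under 1 of 20 alternatives, without wild-type replicate 2. Phf11a missed it under 3 of 19, without wild-type replicate 1 or 3 and in the 7 arrays of high Xist. Helz2 missed it under 13 of 20 alternatives, among them without any 1 array other than wild-type replicate 1, with adjusted p up to 0.114. Lower was Ms4a4c, a membrane protein of the CD20 family, which averaged 6.65 ± 0.38 for ε/ε, 8.85 ± 0.076 for γ1/γ1 and 9.02 ± 0.18 for wild-type (SD, n = 3 each). Its difference from wild-type of -2.37 (limma adjusted p = 0.000654) and from γ1/γ1 of -2.20 (limma adjusted p = 0.0015) passed under all 20 alternatives. Sp100, by -0.62 (limma adjusted p = 0.0301), and Oas1b, by -0.75 (limma adjusted p = 0.0478), named after their values were seen, were also lower. Sp100 had 4 probe sets, of which the brightest was used. It missed the threshold under 10 of 20 alternatives, among them without ε/ε replicate 1 or any wild-type replicate. Over the alternatives the Sp100 difference shrank to as little as -0.37, with limma adjusted p up to 0.454. Oas1b missed the threshold under 15 of 19 alternatives, among them without any 1 of the 9 arrays, with limma adjusted p up to 0.151. Without ε/ε replicate 1, the array richest in macrophage markers, 9 of the 14 genes of these lists that passed between ε/ε and wild-type cells still did, and Jak2, Irf2, Helz2, Sp100 and Oas1b did not. In γ1/γ1 relative to wild-type cells 0 genes of any of these 7 pathway lists passed by limma (all genes: 0.0247% higher and 0.0164% lower). Between 0 and 5 genes of a list had an unadjusted limma p under 0.05. They made at most 14.3% of a list, and the 5 made 9.62% of the 52 further genes, against 6.82% of all genes. Between ε/ε and γ1/γ1 cells Lgals3bp was higher by 1.53 (limma adjusted p = 0.0413), and it missed the threshold under 14 of 20 alternatives, among them without any 1 array other than ε/ε replicate 2. Besides it only Ifna14, Gm13271 and Ms4a4c of these lists passed, beside 1.02% of all genes higher and 1.64% lower in ε/ε.

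**Figure D4:**
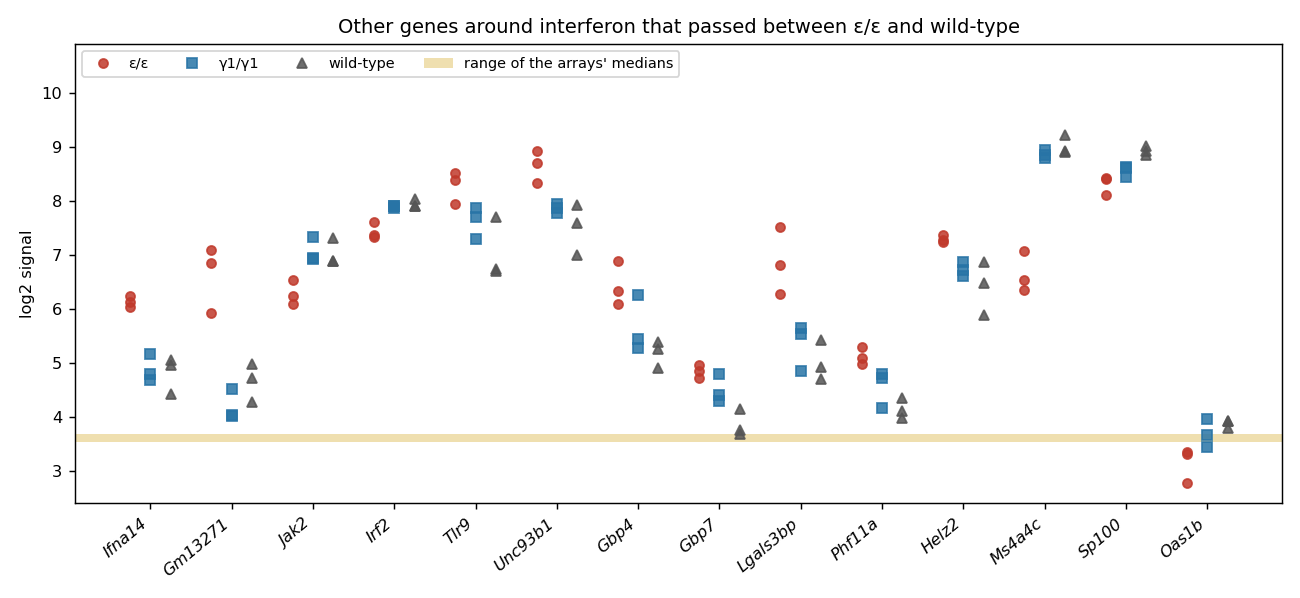
Log2 signal of the 14 genes of the pathway lists that passed between ε/ε and wild-type cells, on each array (ε/ε circles, γ1/γ1 squares, wild-type triangles; band: range of the arrays' medians). Ms4a4c at about 6.65 in ε/ε cells and about 9.02 in wild-type cells shows the widest gap downward, and Gm13271 the widest upward.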

How the data were processed

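Total RNA of sorted splenic follicular B cells was labelled and hybridised to 9 single-colour arrays, 3 per genotype. The authors deposited log2 signals of 41345 probe sets. Their range and medians show the log2 scale. How background, normalization and probe set summary were handled is not given in the sources used here, and per the submitters' processing notes R 3.3.1 was used. For arrays, their number limits the precision, and a value belongs to a probe set.

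Gene names came from the platform annotation, which paired 23521 with 1 symbol, 1814 with several and 16010 with none here. The brightest single-symbol probe set over all arrays stood for a gene. A gene was tested when above its array's median on at least 3 of 9 arrays, which kept 12170 of 22180. Limma 3.58.1 under R 4.3.3 fitted 1 mean per genotype (6 residual degrees of freedom) with eBayes moderation, and p-values were Benjamini-Hochberg adjusted over all genes tested. The script was checked on simulated data. The main fit took the arrays as unpaired. Same-numbered arrays deviated from their group means with correlations of -0.0905 to 0.156. These values alone cannot show whether same-numbered arrays were prepared together.

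The members, the pathway and marker lists, the tests and the alternatives were chosen with earlier results of these data known. All 32 members were to be accounted for, with values per array for members that passed or else the 12 with the smallest F test p. Each list described named up to 4 genes that passed with the largest absolute difference, and Irf1, Irf3, Ifnar1, Ifnar2, Jak1, Tyk2 and Socs1 were always named; a further gene is not reported here. Promoter windows came from RefSeq (GRCm38.p6). Alternatives covered normalization, filter, probe set rule, variance model, array weights, arrays in the fit, the replicate block and leaving out each array. Figures used matplotlib 3.10.9 (Python 3.11.15).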

Additional observations from a re-analysis of the deposited data

How the results depend on the processing

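The count of members that passed between ε/ε and wild-type cells was 0 as reported and under 16 of 20 alternatives. It was 1, Ifit3 each time, after quantile normalization (limma adjusted p = 0.0365), with the filter at the 75th percentile (0.0457), with the replicate block (0.0475) and at an adjusted p under 0.1 (0.0655). Without each array in turn it stayed at 0. For γ1/γ1 against wild-type, ε/ε against γ1/γ1 and the F test the count was 0 under all 20, 20 and 19 alternatives run. The median member difference between ε/ε and wild-type cells was 0.087 as reported, -0.11 with the filter at the 75th percentile, which left 13 members, and -0.024 to 0.10 without each array. Between γ1/γ1 and wild-type cells it was -0.033 as reported, -0.14 with that filter, 0.069 in the 7 arrays of high Xist and -0.097 to 0.069 without each array. Between ε/ε and γ1/γ1 cells it was 0.12 and ran from 0.031 to 0.19 without each array. The cause of these shifts was not tested. No direction was reversed among the 12 members given by array and the 14 pathway genes that passed, each followed in the comparisons where its alternatives were run; the other named genes were not followed. The 772 calls over all genes between ε/ε and wild-type cells were 283 higher and 489 lower, and 410 higher and 300 lower after quantile normalization; they numbered 424 with the 6 arrays compared, 185 or 208 when wild-type replicate 2 or 3 was left out, and 1626 at 0.1. The 324 calls between ε/ε and γ1/γ1 cells were 124 higher and 200 lower, and 203 higher and 177 lower after quantile normalization, 151 higher and 126 lower with each array centred on its median, and numbered from 56, with the 6 arrays compared, to 803 at 0.1. The 5 calls between γ1/γ1 and wild-type cells ranged from 0 to 7. Whether the replicate numbers pair the arrays is not known, and the replicate block changed no other count of members. With 3 arrays a genotype and many members near the median signal, small changes in dim genes could not be seen.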
